A study of Homo sapiens with 18 samples.

Results

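The genes described here are 10 members of the BCL2 family, the regulators that set the threshold for apoptosis at the mitochondrion. They are the rows of the count table that carry the symbols BCL2, BCL2L1, MCL1, BCL2A1, BAX, BAK1, BBC3, PMAIP1, BCL2L11 and BID, 10 of the 58302 genes listed. The study treated U87MG cells, an established human glioblastoma line grown in culture, with Erastin, a small molecule that blocks cystine uptake through system Xc- and triggers ferroptosis. RNA-seq was performed on 2 libraries of control cells, labelled as wild type with no agent named, and on 2 libraries of cells given 10 μM Erastin for 72 h. All 4 libraries came from the same line, with no transgene or deletion in either group. The labels do not say whether the 2 replicates of a group were separate cultures, so p-values measure only the spread between these libraries, which may be technical. The series holds 18 samples, and its ChIP-seq and HiChIP samples were not analysed here.

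The family divides into 3 classes by function. Guardians (BCL2, BCL2L1, MCL1 and BCL2A1) hold the outer mitochondrial membrane intact by binding the other classes in a surface groove. Effectors (BAX and BAK1) form pores in that membrane, through which cytochrome c escapes and starts the caspase cascade. BH3-only proteins (here BBC3, PMAIP1, BCL2L11 and BID) sense stress and either occupy the guardians or engage the effectors directly. Several family genes are known transcriptional targets of the stress factors ATF4 and CHOP, while levels of MCL1 and PMAIP1 protein are also set by rapid degradation. Transcript levels are therefore only 1 layer of control in this family, and neither protein nor cell death was measured in these files.

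Across the libraries, between 29412656 and 31513519 counts lay on genes. The spread between replicates beyond counting error, as 1 value shared by all tested genes, was a coefficient of variation of 10.3%. edgeR terms this value biological, but the labels do not say whether its source was. Expression is given as CPM, the counts of a gene relative to the library total after TMM scaling by edgeR. A gene is said to have risen or fallen where edgeR's quasi-likelihood test gave an adjusted p under 0.05, and to have passed the fold threshold where its log2 fold change was also at least 1 in size, as in the methods of the study. Of 7 markers of the line 5 were tested and 3 fell, VIM, NES and CD44, where 23.7% of all tested genes fell. VIM had 48117 to 77887 counts per library and a log2 fold change of -0.60, and CD44 had one of -0.36. NES fell from 36.5 ± 7.41 to 2.98 ± 0.749 CPM (SD, n = 2), whereas SOX2 had at most 6 counts and S100B at most 2. GFAP and OLIG2 did not pass the test. GFAP had 46 and 41 counts in control libraries and 69 and 81 in Erastin libraries. Its log2 fold change was 0.79 (adjusted p = 0.0696 by edgeR), and that of OLIG2 was -0.40 (adjusted p = 0.305 by edgeR). Markers of other cell types were low. The 8 genes of that list summed to 5.49 and 7.50 CPM in control libraries and to 2.71 and 3.12 CPM in Erastin libraries, with KRT18 at 0 counts in every library and PTPRC at 0 in all but 1, which had 1 count. Among these 8 genes PECAM1 fell and VWF rose, and their part in the results below was not tested. In bulk RNA, fewer cells of a type and less RNA per cell cannot be told apart. As a check of the contrast, MDM2, which encodes a ubiquitin ligase, rose from 78.2 to 422 CPM. The paper had reported this rise, under the name HDM2, from the same RNA-seq. It therefore checks only how the libraries were grouped.

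The BAX and BBC3 promoters are shown because these were the members that passed the fold threshold. RefSeq promoter windows of 300 bases, reaching from 250 bases before the gene start to 50 after it, were available for 9 of the 10 members, all except MCL1. The stretches printed are the parts of these windows that lie before the gene as the count table draws it, 5′ to 3′ on the gene's own strand in GRCh38.p14, at chr19:48954625-48954814 on the plus strand for BAX and at chr19:47232767-47232917 on the minus strand for BBC3. Capitals mark CACGTG, the E-box letters, a motif chosen after these sequences had been seen.
BAX: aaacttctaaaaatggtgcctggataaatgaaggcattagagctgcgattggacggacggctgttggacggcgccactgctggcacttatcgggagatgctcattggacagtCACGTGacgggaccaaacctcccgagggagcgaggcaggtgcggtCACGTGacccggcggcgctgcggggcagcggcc
BBC3: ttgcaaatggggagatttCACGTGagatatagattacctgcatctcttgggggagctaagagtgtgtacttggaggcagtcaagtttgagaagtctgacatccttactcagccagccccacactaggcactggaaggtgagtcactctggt
The whole BAX window held 4 copies of CACGTG, beginning at -138, -93, -45 and -14 relative to the RefSeq start, of which the first 2 fall in the stretch printed. At least 1 copy occurred in 7.26% of the 35116 RefSeq windows of this length, and 4 or more in 0.0142% of them, which is 5 windows. BBC3 held 1 copy, at -232, and so did 2 of the 5 BID windows, which overlap each other. CACGTG reads the same on both strands, so both were covered by 1 search.

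The other motifs searched, on both strands, were the composite C/EBP-ATF letters TGATGNAAN and the GC-box letters GGGCGG. Neither the BAX nor the BBC3 window held TGATGNAAN, which says only that these letters are not in these 300 bases. Among members, TGATGNAAN was found at -63 of BCL2A1, and it occurred in 3.61% of all windows. GGGCGG was present 2 times in the BAX window and not in that of BBC3, against 45.0% of all windows with at least 1 copy.

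Of the 10 members, 9 had enough counts to be tested. After Erastin treatment BBC3, BAX, BCL2L1, BAK1 and MCL1 rose, BID and BCL2L11 fell, and BCL2 and PMAIP1 did not pass the test. Thus 5 members were higher, where 23.2% of the 16751 tested genes were higher, and 2 were lower, where 23.7% of tested genes were lower. In either direction this made 7 members, against 47.0% of tested genes. BAX and BBC3 passed the fold threshold, so 2 members were called higher against a background of 6.24%, and 0 were called lower against 9.34%. By edgeR, 2 members had an unadjusted p under 0.05 in the lower direction, 0 of them past the fold threshold, and DESeq2 also called 0 lower. The median log2 fold change of the 9 tested members was 0.34, beside -0.0026 over all tested genes. In 7 members the 2 Erastin libraries were both higher than either control, and in 2 members both were lower. These arrangements were seen in 36.7% and 36.9% of tested genes.

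**Figure D1:**
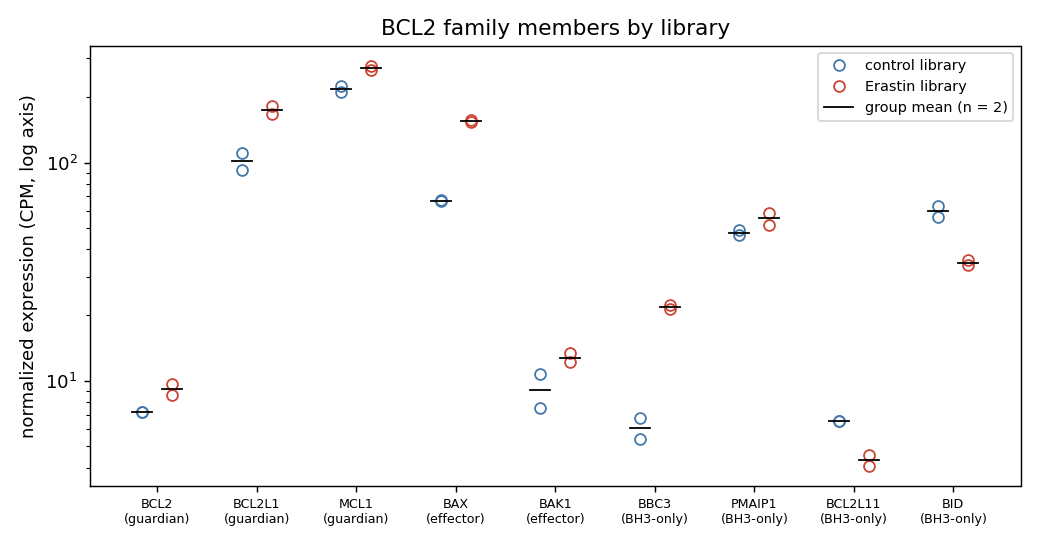
Normalized expression (CPM, log axis) of the 9 tested members in each library. Open circles are single libraries, blue for control and red for Erastin, and black bars are group means (n = 2). BAX and BBC3 show the widest gap between the groups, and BID and BCL2L11 are the members whose Erastin libraries lie below the controls.

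Among the BH3-only genes, BBC3 moved most. BBC3 (ENSG00000105327, chromosome 19, 47220822 to 47232766, minus strand, GRCh38) encodes PUMA, which binds every guardian. It had 165 and 209 counts in control libraries and 664 and 672 in Erastin libraries. Both Erastin libraries were far above both controls, and the 2 replicates of each group were close together. Expression rose 3.59-fold, from 6.06 ± 0.942 to 21.8 ± 0.574 CPM (SD, n = 2), or 1.84 on the log2 scale (SE 0.151, adjusted p = 1.32e-06 by edgeR). This was the widest change of the 9 tested members. Leaving out each library in turn gave log2 fold changes from 1.69 to 2.00. The microRNA genes MIR3190 and MIR3191, which overlap BBC3, had 0 counts in all libraries. Reads matching more than 1 gene had been left out, so this does not show that the overlap left the BBC3 count unaffected.

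PMAIP1 (ENSG00000141682, chromosome 18, 59899948 to 59904306, plus strand) encodes NOXA, a BH3-only protein that binds mainly MCL1 and BCL2A1. It had 1426 and 1517 counts in control libraries and 1761 and 1634 in Erastin libraries. The Erastin libraries were higher without overlap, but by little. Mean expression was 47.7 ± 1.55 CPM in control and 55.4 ± 4.86 CPM in Erastin-treated cells (SD, n = 2), a difference of 0.22 on the log2 scale (SE 0.0888, adjusted p = 0.0661 by edgeR). An interval of 2 standard errors around it runs from 0.038 to 0.39. The value passed the test with library totals as the only scaling (adjusted p = 0.0299 by edgeR), and also without Erastin replicate 2 (log2 fold change 0.30). Without Erastin replicate 1 it was 0.12.

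Both remaining BH3-only genes were lower. BID (ENSG00000015475, chromosome 22, 17734138 to 17774770, minus strand) encodes the protein that caspase-8 cleaves to carry the death-receptor signal to mitochondria. Its counts were 1929 and 1758 in control libraries and 1068 and 1066 in Erastin libraries. The groups were well apart and the Erastin replicates nearly equal. BID fell 1.72-fold, from 59.8 ± 4.59 to 34.8 ± 1.26 CPM (SD, n = 2), or -0.78 on the log2 scale (SE 0.0908, adjusted p = 2.43e-05 by edgeR). Of its 31-base words, 8.09% occur elsewhere on the chromosomes.

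BCL2L11 (ENSG00000153094, chromosome 2, 111119378 to 111168447, plus strand) encodes BIM, which binds all guardians and activates BAX and BAK. It had 200 and 204 counts in control libraries and 122 and 144 in Erastin libraries, lower in both treated libraries. Mean expression was 6.55 ± 0.0184 against 4.33 ± 0.357 CPM (SD, n = 2), a difference of -0.60 on the log2 scale (SE 0.203, adjusted p = 0.0304 by edgeR). This call passed in 7 of 12 alternatives, the fewest among the 7 members that changed. It was lost with DESeq2 (adjusted p = 0.106) and when any 1 of the 4 libraries was left out (adjusted p from 0.0507 to 0.134 by edgeR), although the log2 fold change stayed between -0.68 and -0.52.

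The effectors were both higher. BAX (ENSG00000087088, chromosome 19, 48954815 to 48961798, plus strand), a pore-forming effector that waits in the cytosol of healthy cells, had 2039 and 2087 counts in control libraries and 4685 and 4797 in Erastin libraries. Replicates differed little beside the distance between the groups. BAX rose 2.31-fold, from 66.9 ± 0.352 to 155 ± 2.80 CPM (SD, n = 2), or 1.21 on the log2 scale (SE 0.0681, adjusted p = 5.80e-08 by edgeR). Without any 1 library the log2 fold change was 1.19 to 1.23. Of the 31-base words of BAX, 5.23% also occur elsewhere on the chromosomes, and reads that match more than 1 place had been left out of the counts.

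BAK1 (ENSG00000030110, chromosome 6, 33572547 to 33580293, minus strand), the effector that resides on the mitochondrial membrane, had 328 and 232 counts in control libraries and 365 and 420 in Erastin libraries. The lower Erastin library was close to the higher control, so the groups were separated narrowly. Mean expression was 9.10 ± 2.30 CPM in control and 12.8 ± 0.823 CPM in Erastin-treated cells (SD, n = 2), a difference of 0.49 on the log2 scale (SE 0.183, adjusted p = 0.0443 by edgeR). The size rested on the controls. It was 0.25 without control replicate 2 (adjusted p = 0.297 by edgeR) and 0.77 without control replicate 1. The call was also lost without either Erastin library and with DESeq2 (adjusted p = 0.0935). BAK1 also had the highest share of repeated sequence among the 10 members. Of its 31-base words, 62.3% occur elsewhere on the chromosomes, most often on chromosome 20, and reads matching more than 1 place had been left out. The pseudogene BAK1P1 itself had 8 to 12 counts per library. GGNBP1, which overlaps BAK1, had at most 2, with reads shared by both genes left out.

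Of the guardians, BCL2L1 and MCL1 rose. BCL2L1 (ENSG00000171552, chromosome 20, 31664452 to 31723989, minus strand) encodes BCL-XL and, by alternative splicing, a shorter form that promotes death. Gene-level counts do not separate them. It had 3373 and 2885 counts in control libraries and 4983 and 5728 in Erastin libraries. The treated libraries were clearly above the controls. BCL2L1 rose 1.72-fold, from 102 ± 12.3 to 174 ± 11.1 CPM (SD, n = 2), or 0.78 on the log2 scale (SE 0.0880, adjusted p = 1.90e-05 by edgeR). ABALON, a transcript on the opposite strand inside the same gene, had 59 to 84 counts per library, and unstranded counts cannot assign shared reads to either.

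MCL1 (ENSG00000143384, chromosome 1, 150574551 to 150579738, minus strand), a short-lived guardian on which many tumour cells depend, also has splice forms of opposite function. It had 6445 and 6946 counts in control libraries and 8292 and 8337 in Erastin libraries. The shift was small but larger than the distance between replicates. MCL1 rose 1.25-fold, from 217 ± 9.06 to 271 ± 8.41 CPM (SD, n = 2), or 0.32 on the log2 scale (SE 0.0666, adjusted p = 0.00191 by edgeR). ADAMTSL4-AS1, which overlaps it on the same strand, had 1 to 9 counts per library, with reads shared by both genes left out.

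BCL2 (ENSG00000171791, chromosome 18, 63123346 to 63320128, minus strand), the founding guardian, had 221 and 223 counts in control libraries and 257 and 304 in Erastin libraries. Both treated libraries were higher, with a wider spread between them than between the controls. Mean expression was 7.20 ± 0.0347 and 9.13 ± 0.766 CPM (SD, n = 2). This log2 fold change of 0.34 did not pass the test (SE 0.170, adjusted p = 0.121 by edgeR), although it was close in size to that of MCL1, which had more counts behind it. BCL2A1 (ENSG00000140379, chromosome 15, 79960889 to 79971446), a guardian found mainly in blood cells, had 0 and 2 counts in control libraries and 0 in both Erastin libraries. The limit that a count of 0 allows, 3 counts, is 0.0955 to 0.100 CPM in these libraries, so no change in BCL2A1 was detectable at this depth.

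**Figure D2:**
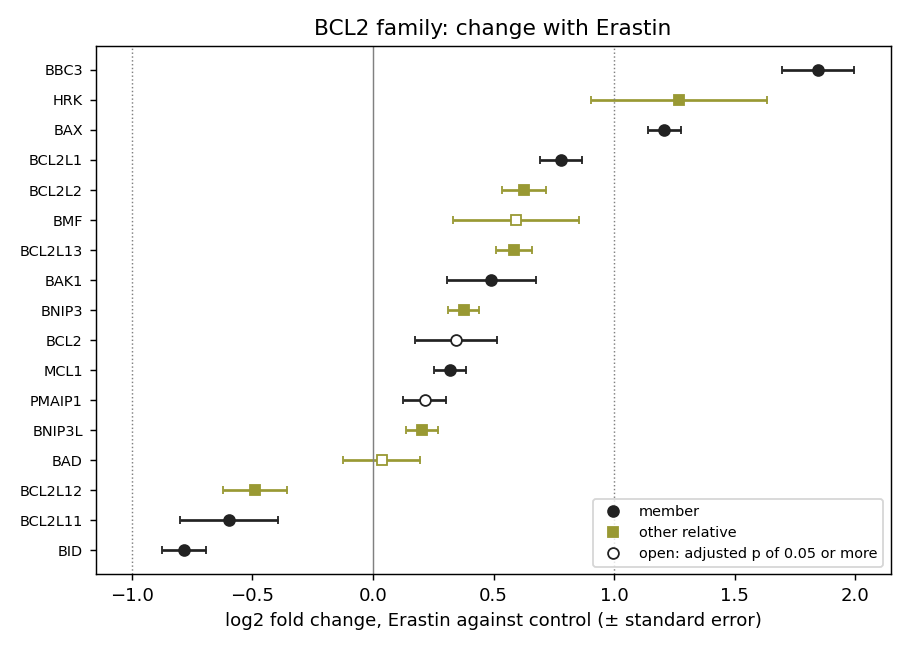
Log2 fold change between Erastin and control libraries for the tested members (black circles) and the other tested relatives (olive squares), with standard errors. Filled symbols have an adjusted p under 0.05 by edgeR, open symbols do not, and dotted lines mark a log2 fold change of 1 in either direction. BBC3, at 1.84, HRK, at 1.27, and BAX, at 1.21, lie beyond the right dotted line, and no gene lies beyond the left.

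To compare levels between genes, counts were divided by gene length and scaled to the same total in every library (TPM). In control cells the order of mean TPM was MCL1 (172), BCL2L1 (106), BAX (89.4), PMAIP1 (73.8), BID (46.5), BAK1 (14.2), BBC3 (6.60), BCL2L11 (3.40), BCL2 (2.12) and BCL2A1 (0.104). No neighbours in this order overlapped between libraries. In Erastin-treated cells it was MCL1 (245), BAX (236), BCL2L1 (207), PMAIP1 (97.8), BID (30.9), BBC3 (27.02), BAK1 (22.8), BCL2 (3.06), BCL2L11 (2.56) and BCL2A1 (0), and the libraries of MCL1 and BAX overlapped. BAX thus stood above BCL2L1 and level with MCL1 in TPM after treatment, and BBC3 stood above BAK1. The order between genes depends on the gene lengths used and on leaving out reads that match more than 1 place. For BAK1, 62.3% of its 31-base words occur elsewhere on the chromosomes, and for BBC3 0%. The order of BBC3 and BAK1 is therefore not settled. Among all tested genes BBC3 moved from percentile 38.6 to 64.5 of TPM and BID from 79.2 to 67.5, whereas BCL2 stayed low, at 21.3 and 25.8. Between the groups, TPM changes ran 0.19 (log2, median over 16712 genes) above the CPM changes, so TPM is used here only within a library.

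Ratios of TPM within a library do not depend on that scaling, but their size depends on the gene lengths used and the reads left out. The ratio of BAX to MCL1 was 0.535 and 0.508 in control libraries and 0.955 and 0.972 in Erastin libraries. The ratio of BAX to BCL2L1 was 0.774 and 0.927, then 1.20 and 1.07, a narrower gap. BBC3 to MCL1 went from 0.0352 and 0.0414 to 0.110 and 0.111. Each of these ratios was higher in both Erastin libraries than in either control. BAX to BID went from 1.82 and 2.04 to 7.54 and 7.73. Ratios are given as values and were not tested.

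Summed over each class, effectors reached 0.373 and 0.368 of the guardian TPM in control libraries and 0.577 and 0.558 in Erastin libraries. BH3-only transcripts went the other way, from 0.459 and 0.472 of the guardian sum to 0.367 and 0.329. Within the BH3-only class the share of BBC3 was 4.50% and 5.61% in control libraries and 16.6% and 17.6% in Erastin libraries, while that of BID was 37.6% and 33.8%, then 19.1% and 19.9%. PMAIP1 was the most abundant BH3-only transcript of the 4 in every library, at 55.3% to 62.8% of the class. The guardian sum was mostly MCL1, at 58.7% and 64.1% of it in control and 55.4% and 52.1% in Erastin libraries, and BCL2L1 supplied nearly all of the rest. On TMM-scaled CPM per kilobase, the guardian sum was 81.0 ± 1.61 in control and 115 ± 1.49 in Erastin-treated cells, the effector sum 30.0 ± 0.906 and 65.6 ± 0.711, and the BH3-only sum 37.7 ± 0.0390 and 40.1 ± 2.58 (SD, n = 2).

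**Figure D3:**
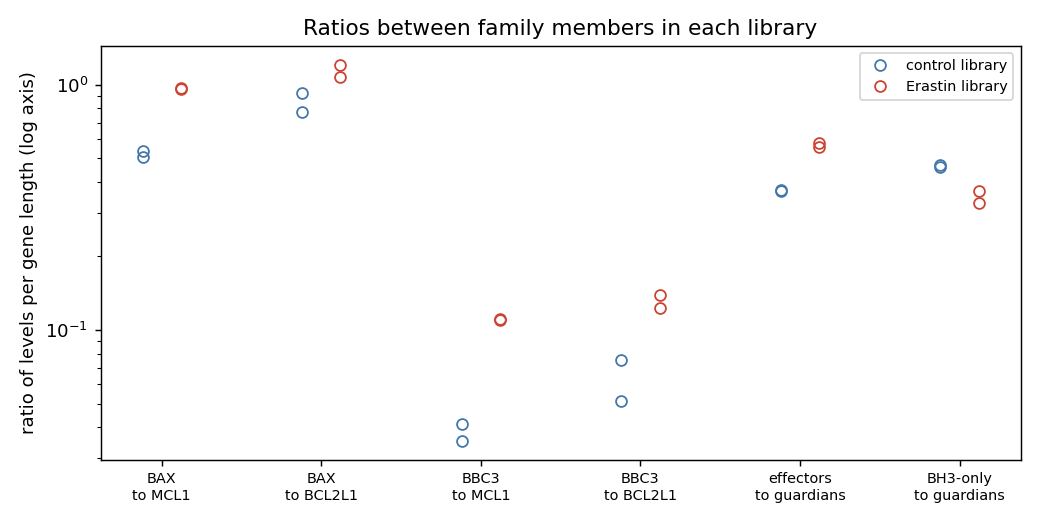
Ratios of length-scaled levels (TPM, log axis) between family members or class sums, 1 circle per library, blue for control and red for Erastin. Ratios of BAX and BBC3 to guardians and of all effectors to all guardians are higher in both Erastin libraries, whereas the ratio of BH3-only genes to guardians is lower.

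A further 13 relatives outside these 10 members were examined, of which 8 were tested. Of these, 5 rose, where 23.2% of all tested genes did, 1 fell, where 23.7% did, and 2 did not pass the test. The median log2 fold change was 0.48. BCL2L2, the guardian BCL-W, had 1054 and 1111 counts in control libraries and 1543 and 1786 in Erastin libraries, and rose from 35.1 ± 0.915 to 54.2 ± 3.72 CPM (SD, n = 2), with a log2 fold change of 0.63 (adjusted p = 0.000137 by edgeR). HRK, a BH3-only gene known from neurons, had 56 and 28 counts in control libraries and 105 and 97 in Erastin libraries. It was the 1 relative past the fold threshold, at 1.27 on the log2 scale (SE 0.365, adjusted p = 0.0132 by edgeR). Its size rested on the controls, being 0.84 without control replicate 2 (adjusted p = 0.0640 by edgeR) and 1.86 without control replicate 1, and the call was also lost without Erastin replicate 1.

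The other relatives that rose were BCL2L13 (log2 fold change 0.59, adjusted p = 4.93e-05 by edgeR), BNIP3 (0.38, adjusted p = 0.000520) and BNIP3L (0.20, adjusted p = 0.0262). These 3 encode mitochondrial proteins known as mitophagy receptors. BCL2L12 fell, with a log2 fold change of -0.49 (adjusted p = 0.00999 by edgeR), which was lost without Erastin replicate 2, and the call for BNIP3L was lost without control replicate 2 or without either Erastin library. BMF, a BH3-only gene, had 93 and 75 against 129 and 123 counts (log2 fold change 0.59, adjusted p = 0.0847 by edgeR), and BAD, the BH3-only protein inhibited by growth-factor kinases, had 358 and 314 against 362 and 323 (0.037, adjusted p = 0.873). The 5 untested relatives were near 0: BCL2L10 had at most 13 counts in a library, BCL2L15 at most 14, BIK at most 6, BOK at most 2 and BCL2L14 had 0 in all.

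Caspases and the genes of the apoptosome, the complex that cytochrome c assembles, changed in both directions. Of 15 apoptosome and caspase genes, all tested, 2 rose, where 23.2% of all tested genes did, and 3 fell, where 23.7% did. In either direction 0 passed the fold threshold, by edgeR at adjusted or unadjusted p and by DESeq2. Of all tested genes 6.24% were called higher and 9.34% lower by edgeR at adjusted p. Their median log2 fold change was 0.085. CASP8, the caspase that cleaves BID, had a log2 fold change of -0.53 (adjusted p = 0.00177 by edgeR) and CYCS, which encodes cytochrome c, had 0.38 (adjusted p = 0.000426 by edgeR). Both were chosen after their values were seen, and both passed in 12 of 12 alternatives. CASP9, the initiator that the apoptosome activates, had -0.40 (adjusted p = 0.0394 by edgeR), lost with DESeq2, with library totals, without Erastin replicate 2 and without either control. APAF1, the scaffold of the apoptosome, had -0.027 (adjusted p = 0.889 by edgeR).

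Of 7 caspase inhibitors 6 were tested, 3 changed, where 47.0% of all tested genes did, and these 3 all passed the fold threshold. Over all tested genes 6.24% were called higher and 9.34% lower. XIAP, which blocks active caspases, rose from 141 ± 3.17 to 291 ± 6.99 CPM (SD, n = 2; log2 fold change 1.04, adjusted p = 1.43e-07 by edgeR). CFLAR, the inhibitor of caspase-8 activation, rose from 46.1 ± 2.54 to 106 ± 9.35 CPM (1.20, adjusted p = 4.13e-07 by edgeR). BIRC5, which encodes survivin and also serves in cell division, fell from 110 ± 6.72 to 9.52 ± 0.937 CPM (-3.53, adjusted p = 3.98e-10 by edgeR). The 3 that changed therefore did not move in 1 direction.

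Death receptors and their partners, the pathway that BID links to mitochondria, were mostly higher. Of 12 genes 9 were tested, 7 rose and 0 fell, by edgeR at adjusted or unadjusted p under 0.05 and by DESeq2, and 6 passed the fold threshold. Of all tested genes 23.2% rose and 6.24% were called higher. The median log2 fold change of the 9 was 1.42. The TRAIL receptor TNFRSF10B rose from 162 ± 1.88 to 494 ± 3.10 CPM (SD, n = 2; log2 fold change 1.61, adjusted p = 3.37e-09 by edgeR) and FAS from 18.2 ± 0.577 to 49.4 ± 1.44 CPM (1.44, adjusted p = 3.13e-07). TNFRSF10D, a decoy receptor for TRAIL, had the widest change of the list, 27.7 ± 0.516 to 129 ± 1.19 CPM (2.22, adjusted p = 1.02e-09 by edgeR), and the decoy TNFRSF10C also rose (1.42, adjusted p = 2.68e-05). TNFRSF10A had 26 and 16 against 97 and 65 counts (1.95, adjusted p = 0.00239 by edgeR). The adaptor kinase RIPK1 rose as well (1.09, adjusted p = 7.16e-06 by edgeR), with a log2 fold change of 0.997 without control replicate 2. The ligands FASLG and TNF had 0 counts in all libraries, and TNFSF10, which encodes TRAIL, had 11 and 6 against 2 and 2.

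Among 13 transcription factors known to induce family genes, 11 were tested, of which 8 rose, against 23.2% of all tested genes, and 3 fell, against 23.7%. Without either Erastin library, or without control replicate 2, 6 rose. ATF4, the amino acid stress factor, rose from 234 ± 22.4 to 947 ± 3.71 CPM (SD, n = 2; log2 fold change 2.02, adjusted p = 2.09e-09 by edgeR), ATF3 by 2.25 on the log2 scale (adjusted p = 1.01e-09) and DDIT3, which encodes CHOP, from 12.7 ± 0.661 to 33.7 ± 2.38 CPM (1.40, adjusted p = 1.55e-06). E2F1, a driver of S phase, fell from 105 ± 10.1 to 34.2 ± 0.753 CPM (-1.62, adjusted p = 3.77e-08 by edgeR). Of 7 genes for the turnover of MCL1 and other family proteins, 5 rose by edgeR, against 23.2% of tested genes, and 4 by DESeq2. By both tools, and by edgeR at an unadjusted p under 0.05, 0 fell and 0 passed the fold threshold, and the median log2 fold change was 0.21.

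**Figure D4:**
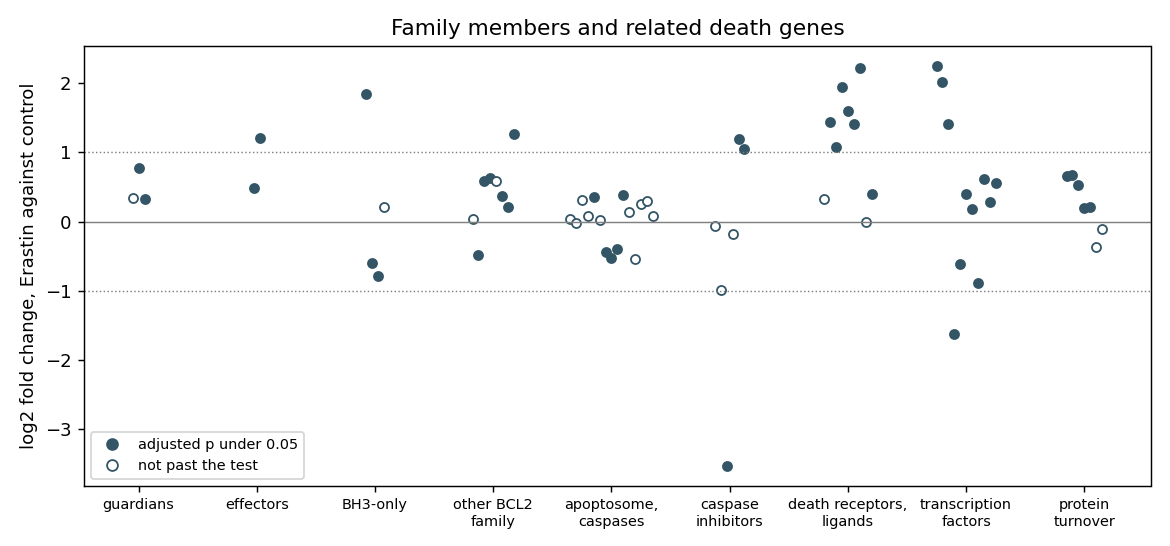
Log2 fold change between Erastin and control libraries for each tested gene of the 3 member classes and 6 related gene lists, 1 circle per gene. Filled circles have an adjusted p under 0.05 by edgeR, open circles do not, and dotted lines mark a log2 fold change of 1 in either direction. Death receptors reach 2.22, while apoptosome and caspase genes stay inside the dotted lines, and BIRC5, at -3.53, is the lowest gene.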

How the data were processed

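The authors sequenced RNA from 2 control and 2 Erastin-treated (10 μM, 72 h) libraries of U87MG. The authors deposited raw counts per gene, which were not normalized. Per the file header they were made by featureCounts 2.0.3 with Ensembl release 90 on GRCh38, unstranded, with the 2 reads of a pair counted separately and reads matching more than 1 place or gene left out. The submitters' processing notes list HISAT2 2.1.0 and featureCounts 2.0.4, whereas the methods name htseq-count. The deposited columns were checked for the decimals of estimated counts, and rounding changed 0 values. Reads from PCR are not independent molecules, so count limits cover counting error only.

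Libraries were grouped by their labels. In R 4.3.3, edgeR 4.0.16 was used (filterByExpr with a minimum count of 10, TMM, quasi-likelihood test), and 16751 genes were tested together. Two-sided p-values were adjusted over all tested genes (Benjamini-Hochberg), and each SE is the log2 fold change divided by the square root of F. TPM was computed from counts and the gene lengths of the count table. The share of 31-base words found elsewhere in the genome was computed for the 10 members only, so copies of other genes were not checked. The method was tested on simulated data with larger fold changes than any tested member showed, so that test does not cover calls of the members' size.

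The members and gene lists were chosen with earlier results of these data known. All members and the other BCL2 relatives were named; of each further list, genes past both thresholds were named, at most 6 by size, plus DDIT3, ATF4, CASP9, APAF1, XIAP, FAS and TNFRSF10B. Genes outside this rule were chosen after seeing their values. The fit was repeated with DESeq2 1.42.0, other scalings and filters, thinned counts, pair counts, glmTreat, a replicate block and each library left out. Protein sequences were not used here, and some genes and a motif covered by these rules are not reported here.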

Additional observations from a re-analysis of the deposited data

How the results depend on the processing

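Over the 9 tested members and the alternatives run, 108 values were compared with the reported ones. Of these 97 kept their direction and side of the threshold, 9 lost the call, 2 gained it and 0 reversed. The calls for BBC3, BAX, BCL2L1, MCL1 and BID held in each alternative. With DESeq2 the log2 fold change was 0.49 for BAK1 and -0.59 for BCL2L11, neither past the test, and 1 member was lower. With library totals PMAIP1 passed at 0.27. With 1 library left out the ranges were 0.25 to 0.77 for BAK1, 0.12 to 0.30 for PMAIP1 and -0.68 to -0.52 for BCL2L11, and 1 member was lower each time. Over all tested genes glmTreat, which tests against the fold threshold itself, called 377 higher and 748 lower in place of 1046 and 1564. With 1 library left out, 3 to 5 other relatives were higher and 0 to 1 lower, 1 to 2 apoptosome and caspase genes were higher and 1 to 2 lower, 1 to 2 caspase inhibitors were lower and 3 to 4 turnover genes were higher. With DESeq2, 1 apoptosome or caspase gene was higher and 1 lower. Class sums differ in unit between TPM and TMM-scaled CPM per kilobase, a scale added after seeing the data, on which guardians had 81.0 and 115, effectors 30.0 and 65.6, and BH3-only genes 37.7 and 40.1 in control and Erastin. Genes near 0 changed sign: BAD ran from -0.087 to 0.15 and APAF1 from -0.098 to 0.040 with 1 library left out, and APAF1 was 0.024 with library totals. The cause was not tested. The labels do not say that same-numbered libraries were prepared together, and the deviations of same-numbered libraries correlated at 0.0338. With a replicate block 1039 genes were called higher and 1568 lower, 3 caspase inhibitors were lower, and no member's call changed. Depth limits BCL2A1, which had at most 2 counts in a library and was not tested.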
